A study of Mus musculus with 6 samples.

Results

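The genes described here are 35 listed genes of motile cilia, the ependyma and the choroid plexus, out of 54532 gene identifiers counted in each library. The rule takes them by name and sets no threshold on a measured value, and all 35 were matched through GENCODE M21 symbols. By role, 5 are regulators of motile cilia, 8 encode parts of the dynein arms, 14 encode other parts of the ciliary shaft or proteins linked to it, and 8 are genes of the choroid plexus. RNA was sequenced from whole C57BL/6J mouse brains at postnatal day 14, 1 library per brain. Per the labels, 3 control brains were Mphosph8fl/+ Nestin-Cre+ and 3 mutant brains were Mphosph8fl/fl Nestin-Cre+, labelled Mphosph8∆n. Both groups thus carried the Cre transgene, and the controls also carried 1 floxed allele. The control titles carry the tag HET, so by the labels mutants were compared with heterozygous controls, not with intact brains. For the sequenced brains, the study's text gives the controls as Nestin-Cre+ only. Nestin-Cre acts in neural progenitors and their descendants, and cells of other origin in the brain, such as vessels, blood and meninges, largely keep the gene. In sorted nuclei of wild-type brains, the study reported MPP8 protein almost only in neurons. Whether ependymal and choroid plexus cells hold it was not measured here. Mphosph8 encodes MPP8, a subunit of the HUSH complex, which silences genes in chromatin carrying histone H3 lysine 9 trimethylation.

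Ependymal cells line the brain ventricles, and in mice they grow their tufts of motile cilia in the first weeks after birth. The proteins Mcidas and Ccno start the making of many basal bodies in such cells, and the transcription factors FOXJ1 and RFX2 or RFX3 switch on the genes of the axoneme, the microtubule shaft that dynein motors bend. The choroid plexus is an epithelium in the ventricles that secretes cerebrospinal fluid and releases large amounts of transthyretin, the carrier of thyroid hormone and retinol encoded by Ttr. The question put to these genes was whether the cilia programme, single cilia genes or choroid plexus genes differed between mutant and control brains.

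RFX factors bind a site whose core arm reads GTTGCC, and the stretches below show where these letters stood in front of member genes. In RefSeq promoter windows of GRCm38.p6, from 250 bases before to 50 bases after a gene's start, GTTGCC was searched on both strands. Of the 29 members with a window, 13 (44.8%) held it, against 14.1% of 27025 genes with a window. All 4 regulators with a window held it, as did 1 of 8 dynein arm genes, 6 of 12 other axoneme genes and 2 of 5 choroid plexus genes. Of lists described below, it stood in 49.4% of 79 other motile cilia genes and 47.2% of 53 primary cilia genes. It stood in 12.1% of 33 other choroid plexus genes and 23.5% of 17 other ependymal genes. The stretches shown lie before the gene's start in both RefSeq and GENCODE, with the arm, or GGCAAC where it is read on the other strand, in capitals. They were chosen to cover a gene of the RFX family itself, the starters of multiciliation, the dynein gene with the largest difference, 2 genes of the central pair and axoneme and 1 choroid plexus gene.
Rfx2, chr17:56831102-56831141, minus strand: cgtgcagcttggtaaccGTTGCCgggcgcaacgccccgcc
Mcidas, chr13:112993656-112993695, plus strand: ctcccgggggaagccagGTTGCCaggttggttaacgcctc
Ccno, chr13:112987566-112987605, plus strand: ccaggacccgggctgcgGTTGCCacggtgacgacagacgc
Dnaic2, chr11:114727376-114727407, plus strand: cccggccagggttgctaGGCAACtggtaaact
Hydin, chr8:110266947-110266976, plus strand: cactctgcggttgctgtGGCAACagatggt
Cfap44, chr16:44394763-44394795, plus strand: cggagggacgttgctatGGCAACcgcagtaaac
Aqp1, chr6:55336171-55336210, plus strand: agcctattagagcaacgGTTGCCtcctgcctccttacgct
The full RFX palindrome was searched as this exact arm, 2 free bases and its reverse complement with 1 set base free. That pattern was found in 0 of the 29 member windows and in 0.355% of all genes' windows. A facing arm with any other change was not counted. Looser pairs were thus missed, such as those in the Hydin and Cfap44 stretches above. TGTTTAC, a site of FOXJ1, stood in the windows of Ak7 and Cfap43 alone among members, and GGATTA, a site of OTX2, in 3 of 29, against 4.05% and 8.14% of all genes. These matches describe letters in a window and were not measured as binding.

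The libraries held 12956880 to 15223424 counts, and levels are given as CPM, counts scaled to library size with TMM normalization. Mphosph8 (ENSMUSG00000079184, chromosome 14, 56668248 to 56697430) averaged 58.4 ± 11.3 CPM over the controls and 28.9 ± 3.63 CPM over the mutants (SD, n = 3). This was a log2 fold change of -1.02 with an edgeR adjusted p of 0.000438. Genes counted as called had an adjusted p under 0.05 in edgeR's quasi-likelihood test and changed over 2-fold, which 0.365% of the 16731 genes tested did. Control replicate 3 was the only library with Y-linked RNA above 1 count per gene and with little Xist, at 27 counts against 11130 or more in the others. Judged by these RNAs it was the only male, so sex was not balanced between groups, and sex was not a term in the fit. In whole brain RNA, fewer cells of a type and less RNA per cell cannot be told apart.

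None of the 35 members was called, in edgeR or in any of 14 alternative fits. In edgeR 0.365% of all tested genes were called, and 0.359% were called higher. Of the 33 members with enough counts to test, 0 passed an adjusted p under 0.05, which 0.651% of all tested genes did. Before adjustment 3 had a p under 0.05, with Dnaic1 and Dnaic2 higher and Ttr lower in mutant brains, where 6.54% of all tested genes reached that level. Of the 33, 18 had a positive and 15 a negative log2 fold change. The 95% interval of the change lay within 2-fold in either direction for 32 of them, the exception being Spag17, and within 1.5-fold for 22. All 3 mutant libraries lay above all 3 controls for Dnah2 and Dnaic2 (6.23% of all tested genes), and below them for Dnah9 and Ttr (5.42%). The plot of changes with their intervals shows all 33 by role.

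**Figure D1:**
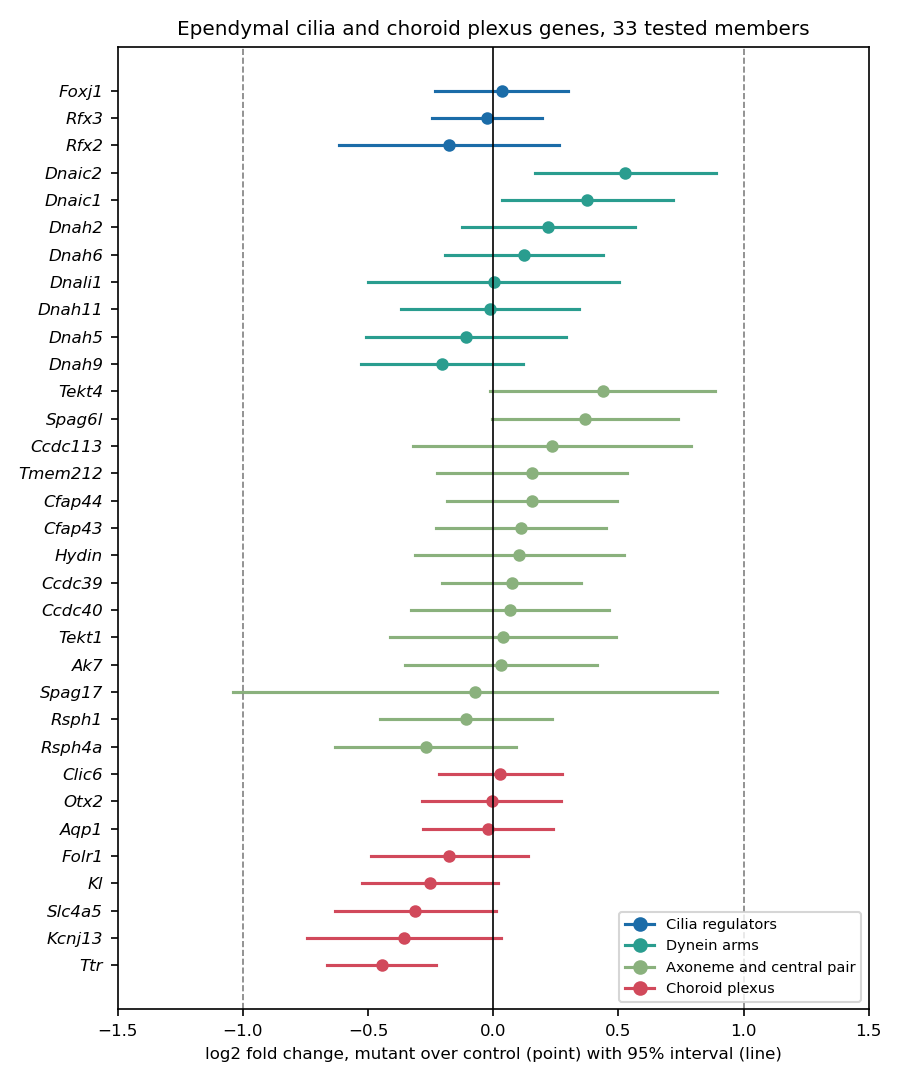
log2 fold changes of mutant over control for the 33 tested members (points) with 95% intervals (lines), grouped and coloured by role, with dashed lines at 2-fold. Of the lines, 32 of 33 end inside the dashed lines, and the 3 that do not cross 0 belong to Dnaic1, Dnaic2 and Ttr.

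Foxj1 (ENSMUSG00000034227, chromosome 11, 116330704 to 116335399) is the master transcription factor of motile cilia. Whole brain RNA does not tell which ciliated cells its level comes from. Its level was 20.5, 22.0 and 16.9 CPM in control replicates 1, 2 and 3 and 23.6, 19.9 and 17.3 CPM in the mutants. The groups overlapped in part, with mutant replicate 1 the highest and control replicate 3 the lowest of all libraries. The log2 fold change was 0.03 ± 0.13 (SE, 95% interval -0.23 to 0.30), and the edgeR adjusted p was 0.993. A change of Foxj1 RNA beyond 1.23-fold upward or below 0.852 of the control level thus lay outside the interval. Per length, Foxj1 had the highest level of the cilia members, at 7.64 CPM per kilobase of exon.

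Rfx3, a factor that switches on cilia genes and is also made in neurons, stood at 36.2, 43.1 and 44.8 CPM in control and 34.8, 44.3 and 42.8 CPM in mutant libraries. Rfx2, its relative, stood at 3.59, 3.66 and 3.85 CPM against 2.96, 2.69 and 4.14 CPM. For both factors the groups overlapped, with log2 fold changes of -0.02 for Rfx3 and -0.18 for Rfx2 and edgeR adjusted p-values of 0.994 and 0.964. Mutant replicate 3 was the highest of all 6 libraries for Rfx2, while the other two mutants were the lowest.

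Mcidas and Ccno act early in multiciliation and had too few counts to enter the reported test. Mcidas had 0, 1 and 2 counts in control and 3, 4 and 3 counts in mutant libraries. The totals of 3 and 10 counts gave a ratio to library size of 3.64 with an exact interval of 0.937 to 20.6, which includes 1. Ccno had 13, 7 and 10 counts in control and 8, 11 and 7 counts in mutant libraries, a ratio of 0.947 (interval 0.538 to 1.66). These intervals cover counting error only.

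The dynein arms power the beat, and the intermediate chain genes Dnaic1 and Dnaic2 were the only cilia members with an unadjusted p under 0.05. Dnaic2 (ENSMUSG00000034706, chromosome 11, 114727408 to 114757889) encodes an outer arm intermediate chain whose promoter stretch is printed above. It stood at 4.06, 4.25 and 3.71 CPM in control and 5.68, 6.20 and 5.45 CPM in mutant libraries, with every mutant above every control. The log2 fold change was 0.53 ± 0.17 (SE, 95% interval 0.17 to 0.89), with an unadjusted p of 0.00644 and an edgeR adjusted p of 0.326, so it did not pass. Leaving out each library in turn kept the log2 fold change between 0.47 and 0.57.

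Dnaic1, the other intermediate chain and the dynein member with the highest level per length at 3.48 CPM per kilobase, stood at 10.3, 8.57 and 6.41 CPM in control libraries. In mutant libraries it stood at 9.28, 11.9 and 11.6 CPM, so the groups overlapped. On the log2 scale the change was 0.38 ± 0.16 (SE), and the edgeR adjusted p was 0.68. Control replicate 3 was the lowest library, and without it the log2 fold change was 0.21.

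The 5 dynein heavy chains, the motor subunits, did not share a direction. Dnah2, an inner arm chain, stood at 4.65, 6.37 and 6.21 CPM in control and 6.40, 6.57 and 7.05 CPM in mutant libraries, a log2 fold change of 0.22. Dnah9, an outer arm chain, stood at 6.45, 7.25 and 7.36 CPM in control and 5.44, 6.42 and 6.40 CPM in mutant libraries, a log2 fold change of -0.20. Neither pair of groups overlapped, although the closest libraries nearly touched, and both genes had an edgeR adjusted p of 0.921. Dnah5 and Dnah11, also outer arm chains, and Dnah6, an inner arm chain, had log2 fold changes of -0.11, -0.01 and 0.12, and the light intermediate chain Dnali1 one of 0.00. Over the 8 dynein members the median log2 fold change was 0.06, beside -0.01 over all tested genes, and without single libraries it ran from 0.02 to 0.19. Their summed level ran from 44.9 to 54.9 CPM in control and from 51.1 to 55.2 CPM in mutant libraries.

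Over the other 14 axoneme members the median log2 fold change was 0.09, with 11 positive and 3 negative, and 0 of them had a p under 0.05 in edgeR before adjustment. Without mutant replicate 2 the median was 0.02 and without control replicate 3 it was 0.06, each with 8 positive and 6 negative, and without control replicate 2 it was 0.17, with 12 positive. Tekt4, which encodes a tektin of the microtubule wall, had the largest at 0.44 ± 0.22 (SE). Its level was 3.92, 4.39 and 2.97 CPM in control and 5.12, 3.73 and 6.40 CPM in mutant libraries, which overlapped, and without mutant replicate 3, the highest library, the log2 fold change was 0.23. Rsph4a, a radial spoke gene, had the smallest at -0.27 ± 0.17, from 5.52, 7.69 and 6.21 CPM in control to 5.84, 5.60 and 4.65 CPM in mutant libraries. Here too the groups overlapped, and the edgeR adjusted p-values were 0.788 for Tekt4 and 0.894 for Rsph4a.

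Tmem212, a membrane protein gene of ciliated cells, had the highest level per length of this role at 6.38 CPM per kilobase. It stood at 4.72, 4.54 and 3.71 CPM in control and 4.72, 5.15 and 4.58 CPM in mutant libraries, a log2 fold change of 0.16 with overlapping groups. Spag6l, a central pair gene, had a log2 fold change of 0.37 with an unadjusted p of 0.0519 and an edgeR adjusted p of 0.766. The genes of the ruler that spaces the arms, Ccdc39 and Ccdc40, had log2 fold changes of 0.07 each. Ccdc39 shares 1256 exonic bases with an opposite-strand gene, Ttc14, and whether the counting used strand is not stated in the sources used here. Its level is therefore uncertain.

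Spag17, another central pair gene, was the least certain member. It had 32, 39 and 7 counts in control and 19, 27 and 22 counts in mutant libraries, with control replicate 3 far below the other two controls. Its log2 fold change of -0.07 had a 95% interval from -1.04 to 0.89, and without single libraries it ranged from -0.53 to 0.39. It also shares 1336 exonic bases with genes on the opposite strand.

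Of the axoneme members not given by library, the radial spoke gene Rsph1 had a log2 fold change of -0.11 and the central pair gene Hydin one of 0.10. Ccdc113, Cfap43 and Cfap44, which encode further axoneme-linked proteins, had 0.24, 0.11 and 0.16, and the tektin gene Tekt1 and the adenylate kinase gene Ak7 had 0.04 and 0.03. Hydin and Spag17 had the lowest levels per length of all tested members, at 0.221 and 0.208 CPM per kilobase. Summed over the 27 cilia members, levels were 194, 218 and 198 CPM in control and 198, 225 and 215 CPM in mutant libraries, so the summed levels overlapped. For the 25 tested cilia members the median log2 fold change was 0.07, and 17 were positive. Over the same genes, the median without single libraries ran from 0.02, without mutant replicate 2 and with 14 of 25 positive, to 0.11, without mutant replicate 3.

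**Figure D2:**
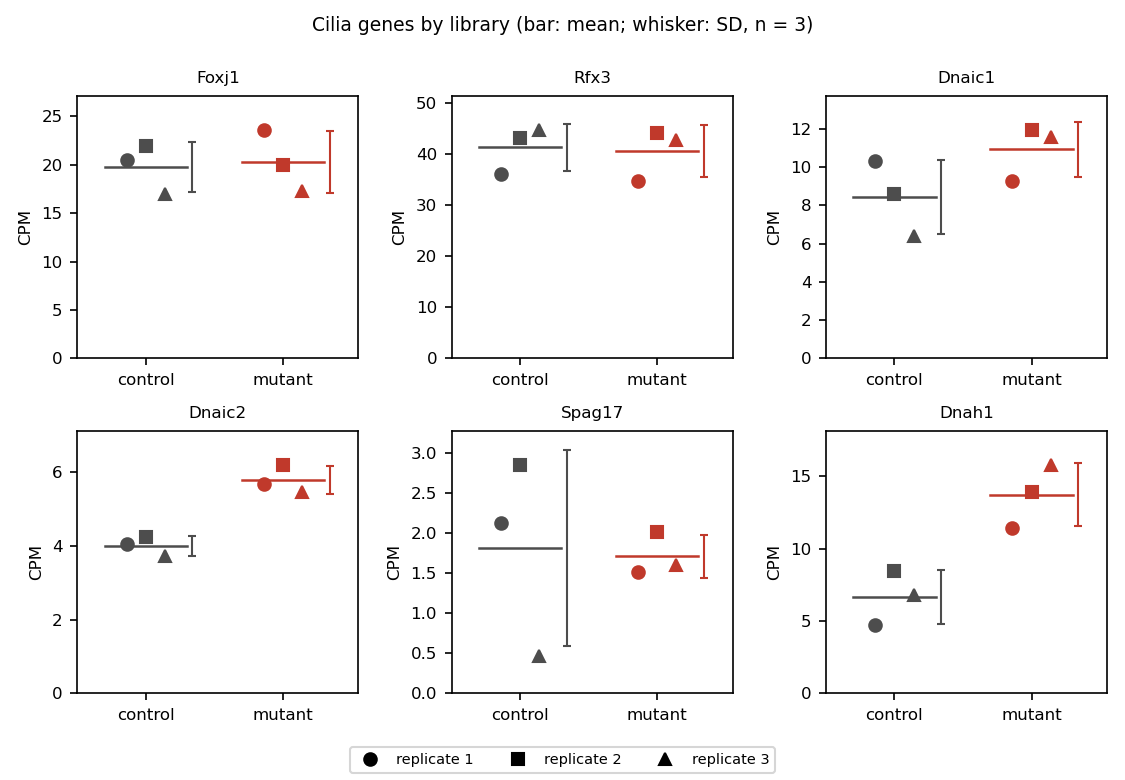
CPM in each library (marker shape: replicate number) for 5 cilia members and Dnah1, with the group mean as a bar and the SD (n = 3) as a whisker, each y axis starting at 0. Foxj1, Rfx3, Dnaic1 and Spag17 overlap between groups, Dnaic2 and Dnah1 do not, and control replicate 3 is the lowest library for Foxj1, Dnaic1, Dnaic2 and Spag17.

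Of all tested genes 0.365% were called. Among 99 other motile cilia genes, 91 were tested and 1 was called. This was Dnah1 (ENSMUSG00000019027, chromosome 14, 31260375 to 31323896, minus strand), which encodes an inner arm dynein heavy chain. Its level was 4.72, 8.42 and 6.82 CPM in control and 11.4, 13.9 and 15.8 CPM in mutant libraries. Every mutant library was above every control, without overlap. Its log2 fold change of 1.05 ± 0.18 (SE, 95% interval 0.67 to 1.43) had an edgeR adjusted p of 0.00488. It passed an adjusted p of 0.05 in all 14 alternative fits, but its change was below 2-fold without control replicate 1, at 0.85, and without mutant replicate 3, at 0.93.

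Dnah1 rose while the summed cilia members overlapped between groups. As a share of the summed CPM of the 27 cilia members, it was 2.43%, 3.86% and 3.44% in control and 5.77%, 6.17% and 7.35% in mutant libraries. No 50-base stretch of its transcripts was found in another gene's transcripts, and its promoter window held none of the motifs named above. It shares 551 exonic bases with an antisense RNA, Gm35823, which had 8, 11 and 4 counts in control and 14, 11 and 12 counts in mutant libraries. Dnah1 lies on the same chromosome as Mphosph8, at the coordinates given.

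Over the remaining 90 tested genes of that list the median log2 fold change was 0.02, with 46 positive and 44 negative. Of the 91, 6 were higher and 2 lower at an unadjusted p under 0.05, against 4.13% and 2.41% of all tested genes. Tppp3, a microtubule-associated gene, was the lowest of these, at -0.35 on the log2 scale (edgeR adjusted p 0.391). The 60 genes of primary cilia and intraflagellar transport, the system that carries cargo along both kinds of cilia, had a median of -0.01, and 58 of their 95% intervals lay within 1.5-fold. None of these passed an adjusted p of 0.05 in edgeR, and 3 had an unadjusted p under 0.05. The extremes among these 3 were the kinesin gene Kif17 at 0.26 and the chaperonin-like gene Bbs12 at -0.51, with edgeR adjusted p-values of 0.71 and 0.757. In 23 tested ependymal genes outside the axoneme the median was -0.04, and S100a6, a calcium-binding protein gene, was the only one with an unadjusted p under 0.05, at -0.42 with an edgeR adjusted p of 0.0729.

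Of the 8 choroid plexus members, 7 had a negative log2 fold change, where 52.4% of all tested genes did, and their median was -0.21. Ttr (ENSMUSG00000061808, chromosome 18, 20665280 to 20674321) stood at 1671, 1443 and 1381 CPM in control and 1069, 1214 and 1018 CPM in mutant libraries. Every mutant library lay below every control, and the means were 1498 ± 153 and 1100.4 ± 102 CPM (SD, n = 3). The log2 fold change was -0.45 ± 0.10 (SE, 95% interval -0.66 to -0.23), or 0.734 of the control level. The edgeR adjusted p was 0.0545, just outside the threshold. It ranged over the 14 alternatives from 0.000517 in DESeq2 to 0.417 without mutant replicate 3 (-0.39), and was 0.332 without control replicate 1 (-0.36).

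Ttr dominated the choroid plexus signal. Per length it stood at 1096 CPM per kilobase, 143-fold above the next member, Foxj1, and made up 91.9% to 94.7% of the summed CPM of the 8 choroid plexus members. Summed over the other 7, levels were 92.8, 89.5 and 89.4 CPM in control and 94.3, 85.3 and 72.5 CPM in mutant libraries, which overlapped. The ratio of Ttr to that sum was 18.0, 16.1 and 15.5 in control and 11.3, 14.2 and 14.0 in mutant libraries, which did not. Mutant replicate 1 thus had the lowest ratio and the highest sum of the other 7.

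Among the ion and water transport genes, Kcnj13, a potassium channel, had a log2 fold change of -0.36 ± 0.19 (SE) and Slc4a5, a bicarbonate transporter, one of -0.31 ± 0.15. Their unadjusted p-values were 0.0694 and 0.0572, and the edgeR adjusted values 0.806 and 0.788. Of the 1270 exonic bases of Kcnj13, 623 lie opposite exons of Gigyf2, so its value is uncertain for the same reason as that of Ccdc39. Aqp1, the water channel of the apical membrane, had -0.02, and Clic6, a chloride channel family gene, had the highest value of the 8 at 0.03. Clic6 stood at 20.2, 19.7 and 19.2 CPM in control and 22.8, 20.9 and 16.6 CPM in mutant libraries, so the mutants spread to both sides of the controls.

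Of the other choroid plexus members, Kl, the gene of the FGF23 coreceptor Klotho, had a log2 fold change of -0.25 with an edgeR adjusted p of 0.806. Folr1, which carries folate into the cerebrospinal fluid, had -0.18. It was 11.5 CPM in all 3 controls and 12.3, 10.6 and 7.71 CPM in the mutants. Without mutant replicate 3 its log2 fold change was -0.0064, and without mutant replicate 1 it was -0.33. Otx2, a transcription factor of the choroid plexus, had -0.01, and 168 of its exonic bases lie in another gene on the same strand.

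Mutant replicate 3 was the lowest mutant library for 6 of the 8 choroid plexus members. It was the lowest mutant for 21 of 38 other choroid plexus genes, for 12 of 15 meningeal markers and for 8 of 8 oligodendrocyte markers, and for 9 of 25 cilia members. In other lists it was the lowest for 19 of 60 primary cilia genes, 3 of 8 astrocyte and 0 of 8 microglial markers. Mutant replicate 1 was the lowest for 37 of the 60 primary cilia genes. The share over all tested genes was not counted. Without mutant replicate 3 the median log2 fold change of the 8 choroid plexus members was -0.07, with 5 negative.

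Over the 38 other choroid plexus genes tested the median log2 fold change was -0.15, with 33 negative. None passed an adjusted p of 0.05 in edgeR, and 4 had an unadjusted p under 0.05, all lower. Without Enpp2, a gene of this list, 3 remained. Of all tested genes, 2.41% were lower at that level and 52.4% had a negative log2 fold change. 1500015O10Rik, which encodes a peptide secreted by the choroid plexus, had -0.48 with an edgeR adjusted p of 0.104. Slc12a2, the sodium, potassium and chloride cotransporter of this epithelium, had -0.22 with one of 0.504. Without mutant replicate 3 the median was -0.07, with 28 of 38 negative. All 40 genes of this list summed to 1724, 1791 and 1811 CPM in control and 1726, 1596 and 1405 CPM in mutant libraries. The groups overlapped only through mutant replicate 1. Much of the difference in this sum came from Enpp2. Without it the other 39 genes summed to 1118, 1173 and 1192 CPM in control and 1217, 1091 and 1025 CPM in mutant libraries. Mutant replicate 1 was then the highest of all libraries.

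**Figure D3:**
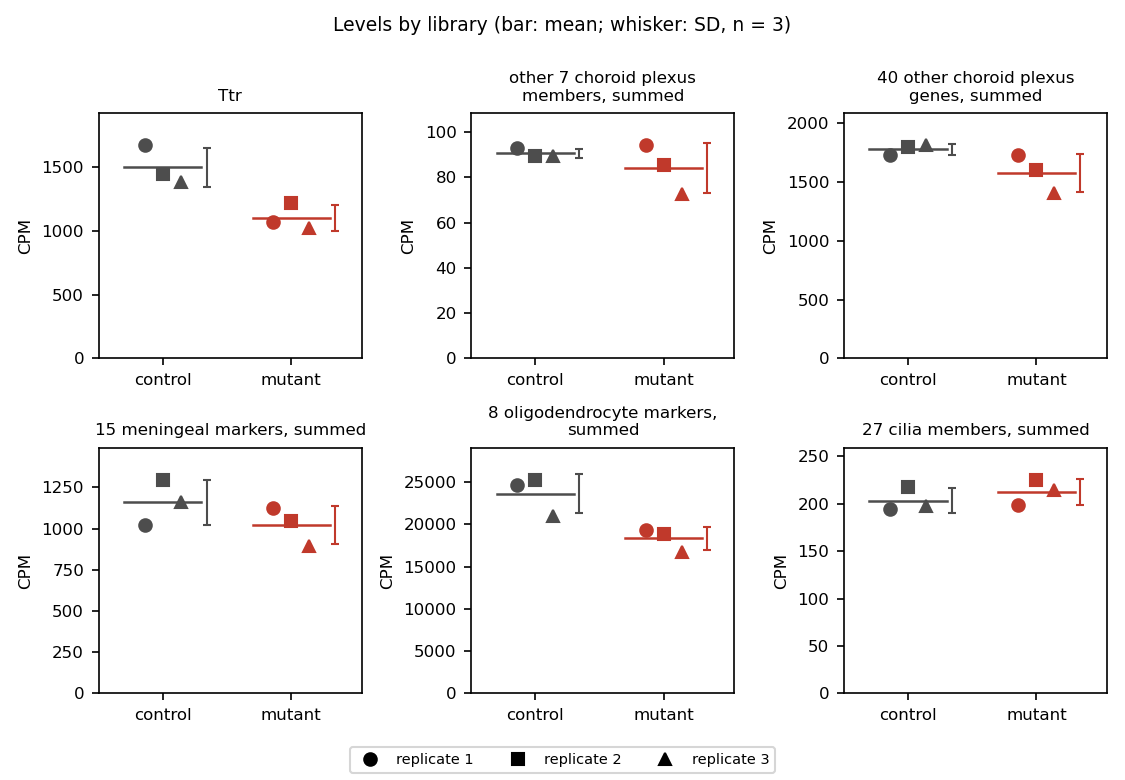
CPM in each library (marker shape: replicate number) for Ttr and for summed gene lists, with the group mean as a bar and the SD (n = 3) as a whisker, each y axis starting at 0. Ttr and the oligodendrocyte markers do not overlap between groups. The other 7 choroid plexus members, the 40 other choroid plexus genes, the meningeal markers and the 27 cilia members do overlap.

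Markers of tissue that a dissection could take or leave were read beside the choroid plexus genes. The 15 meningeal markers summed to 1025, 1295 and 1160 CPM in control and 1125, 1047 and 894 CPM in mutant libraries. Of these, 13 had a negative log2 fold change, with a median of -0.16, which was -0.05 without mutant replicate 3 and -0.27 without control replicate 1. Ptgds was the only one with an unadjusted p under 0.05, at -0.25 with an edgeR adjusted p of 0.658. This gene made up a large part of the meningeal sum, at 571, 755 and 631 CPM in control and 560, 590 and 498 CPM in mutant libraries. Summed blood markers ran from 335 to 409 CPM in control and from 329 to 417 CPM in mutant libraries, and cerebellar markers from 1091 to 1293 and from 1143 to 1221 CPM. Olfactory bulb markers ran from 169 to 201 and from 165 to 170 CPM, hypothalamic markers from 42.7 to 53.7 and from 36.9 to 44.3 CPM, and pineal markers from 17.3 to 19.9 and from 18.9 to 20.5 CPM. Median log2 fold changes were -0.24 for hypothalamic markers (5 of 7 tested negative) and -0.14 for olfactory bulb markers (6 of 8). They were -0.06 for cerebellar (6 of 8), 0.08 for pineal (1 of 4) and 0.17 for blood markers (1 of 6). Pituitary markers summed to 3.17 to 5.19 CPM in control and 2.69 to 3.43 CPM in mutant libraries, and 9 of the 10 had too few counts to test. The part of any of these tissues in the Ttr difference was not tested.

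Among marker lists of brain cells, oligodendrocytes had the lowest median log2 fold change. All 8 of their markers had a negative log2 fold change and an unadjusted p under 0.05, with a median of -0.43. Their sum was 24595, 25231 and 20988 CPM in control and 19355, 18854 and 16758 CPM in mutant libraries. Mog, a myelin protein gene, stood at 277, 245 and 229 CPM in control and 204, 181 and 150 CPM in mutant libraries, with no overlap. It fell by 0.49 on the log2 scale, with an edgeR adjusted p of 0.0283. Astrocyte, microglial, neuronal and endothelial markers had medians of 0.14, 0.04, -0.04 and -0.11. Of single markers with an unadjusted p under 0.05, the log2 fold changes at the ends of each list were -0.56 for Pomc (pituitary), -0.30 for Eomes (olfactory bulb), -0.49 for Pmch (hypothalamus), 0.26 for Aldh1l1 (astrocytes), -0.24 for Cnp (oligodendrocytes) and 0.28 for Slco1a4 (endothelium). Their edgeR adjusted p-values ran from 0.317 to 0.758. Their part in the values of the members was not tested.

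**Figure D4:**
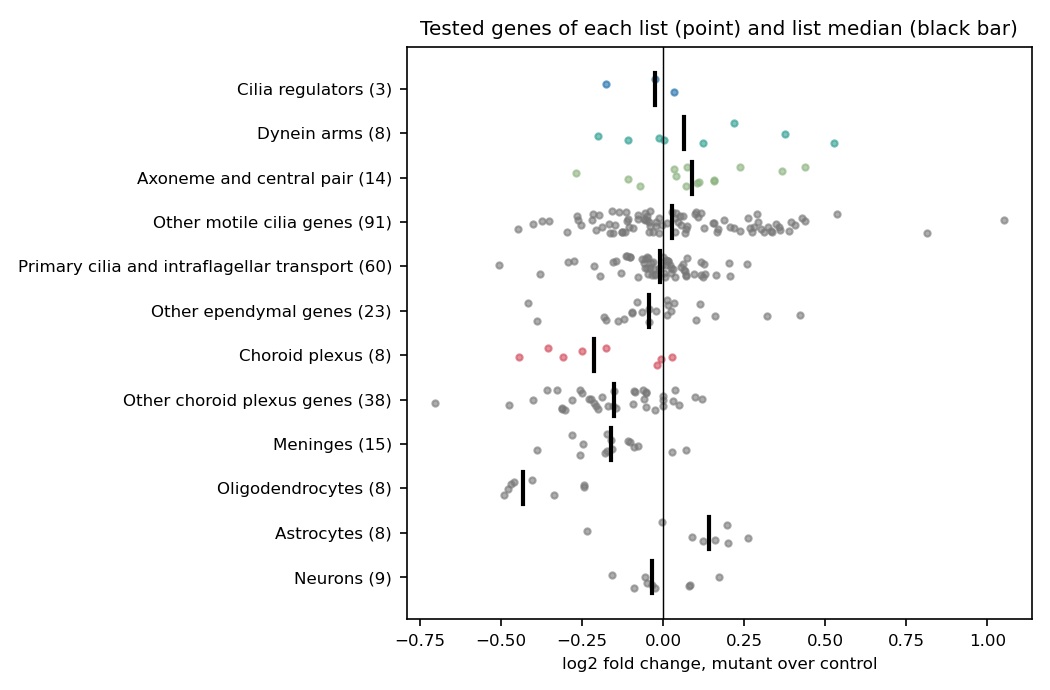
log2 fold changes of mutant over control for the tested genes of each list (points, number in brackets) with the list median (black bar). The 3 cilia roles, the other motile cilia genes and the primary cilia genes have medians from -0.02 to 0.09, and the choroid plexus lists, the meninges and the oligodendrocytes from -0.15 to -0.43. Hypothalamic, olfactory bulb, cerebellar, pineal, pituitary, blood, microglial and endothelial markers are not drawn.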

How the data were processed

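PolyA RNA was read as single ends of 50 bases, and the authors trimmed reads with Trim Galore 0.5.0, removed abundant sequences with Bowtie2 2.3.4.1, aligned the rest to Ensembl GRCm38 release 94 with STAR and counted them per gene with featureCounts (Subread 1.6.2). The deposited values are raw counts, 1 table per brain. Whether counting used strand is not stated in the sources used here, and 11 of the 35 members have exonic bases opposite an exon of another gene. At most 2.75% of a tested member's 50-base transcript stretches occur in another gene.

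Symbols and coordinates come from GENCODE M21, which matched 54495 identifiers. Counts were fitted with edgeR 4.0.16 in R 4.3.3 (filterByExpr, TMM, robust quasi-likelihood F test, genotype as the only term, 6 libraries), with Benjamini-Hochberg adjustment over 16731 genes. Standard errors and 95% intervals come from the F statistic. List medians are descriptions with no test. Alternatives were RLE factors, library totals alone, DESeq2 1.42.0, limma-voom (limma 3.58.1), no filter, at least 1 CPM in 3 libraries, a replicate block, each library left out and, chosen after seeing the data, no robust step. The steps were tested on simulated data.

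Each brain is 1 mouse. Members and lists were chosen with earlier results of these data known. Every member could be named. Values by library were given for members with an unadjusted p under 0.05, for the extremes and the highest level per length of each role, and for Foxj1, Rfx3, Mcidas, Ccno and Ttr, and from other lists for genes with an adjusted p under 0.05, with the extremes among those with an unadjusted p under 0.05. Values of Dnah2, Dnah9, Spag17, Folr1 and Gm35823 by library were added after their values were seen. Deviations of same-numbered brains from their group means had correlations of 0.107, -0.055 and 0.088. These values show no pairing by number but cannot exclude it, and the paper states that littermates were used. With the replicate block, edgeR put 39 tested genes lower and 114 higher at an adjusted p under 0.05, against 17 and 92 without it.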

Additional observations from a re-analysis of the deposited data

How the results depend on the processing

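No member was called in any of the 14 alternatives, and 17 of the 33 tested members kept the sign of their change. The count of members past an adjusted p of 0.05 was 0 in the reported fit and 1, Ttr each time, with library totals, DESeq2, limma-voom, no filter and the replicate block, whose adjusted p for Ttr was 0.0493. The count of members with an unadjusted p under 0.05 was 5 with no filter and 3 to 7 without single libraries. Leaving out single libraries, the choroid plexus median ran from -0.303 to -0.072 and the Mphosph8 change from -1.13 to -0.85. For 16 members, each with a log2 fold change of at most 0.123 in size, the sign turned in at least 1 alternative. Cfap43, at 0.11, kept its sign. Dnali1 was -0.0047 with library totals, -0.00040 in DESeq2 and -0.00052 with no filter, Spag17 was 0.26 in limma-voom, and Otx2 was 0.00096 with the replicate block. Without single libraries the ranges were -0.088 to 0.14 for Foxj1, -0.11 to 0.073 for Rfx3, -0.23 to 0.10 for Dnah5, -0.00088 to 0.28 for Dnah6, -0.076 to 0.098 for Dnah11, -0.19 to 0.15 for Dnali1, -0.041 to 0.23 for Ccdc39, -0.059 to 0.22 for Ccdc40, -0.026 to 0.27 for Hydin, -0.53 to 0.39 for Spag17, -0.19 to 0.0037 for Rsph1, -0.034 to 0.14 for Tekt1, -0.17 to 0.13 for Ak7, -0.13 to 0.064 for Otx2, -0.072 to 0.15 for Clic6 and -0.12 to 0.058 for Aqp1. Members that kept their sign but moved by over 1.5 times without a single library ran from -0.39 to -0.05 for Rfx2, 0.085 to 0.30 for Dnah2, -0.26 to -0.13 for Dnah9, 0.21 to 0.55 for Dnaic1, 0.017 to 0.36 for Ccdc113, -0.37 to -0.13 for Rsph4a, 0.23 to 0.62 for Tekt4, 0.0082 to 0.19 for Cfap43, 0.05 to 0.25 for Cfap44, 0.058 to 0.22 for Tmem212, -0.33 to -0.14 for Kl, -0.33 to -0.0064 for Folr1 and -0.46 to -0.20 for Slc4a5. Mog passed an adjusted p of 0.05 in 10 of the 14 alternatives, and not without control replicates 1 or 2 or mutant replicates 2 or 3. The causes were not tested. With 3 brains per group, the 95% interval of 1 member, Spag17, reached past 2-fold. Mcidas and Ccno, left out by the count filter, were tested in DESeq2 and with no filter, and neither passed an adjusted p of 0.05 there.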
